A study of Mus musculus with 20 samples.

Results

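The genes described are 10 genes of the oocyte's coat and of the signals between the oocyte and its follicle: Zp1, Zp2, Zp3, Gdf9, Bmp15, Kit, Kitl, Figla, Nobox and Lhx8. They were taken by symbol from a table of 39253 genes, with earlier results of these data known. All 10 passed the filter on low counts that left 17810 genes. The libraries were poly(A) RNA from ovarian antral follicles of 20 female CD-1 mice, an outbred stock. The exposed mice drank water with iodoacetic acid, a by-product of water disinfection, at 10 mg/L (5 mice, experiment 2) or 500 mg/L (5 mice, experiment 1). The controls drank reverse osmosis water alone (5 mice in each experiment, 10 in all). Exposure lasted 35 days from 40 days of age, and follicles were taken in diestrus at 75 days. Each library was 1 mouse. The experiments were run a month apart, so dose and experiment can be told apart only through the controls of each experiment, and a dose was seen in 1 experiment each.

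Library totals ran from 39.9 to 67.5 M estimated counts (M for mega), and in the whole-table fit the typical spread of a gene between mice was 25%. Granulosa markers (7 of 7 tested) summed to 6108 to 12821 counts per M counts (CPM) per mouse and theca markers (6 of 6 tested) to 4122 to 8913 CPM, and the 25 further oocyte genes summed to 486 to 908 CPM. The libraries thus held markers of granulosa, theca and oocyte, while the antral stage itself was not tested. Of 7 mast cell markers, which mark KIT-bearing cells other than oocytes, 6 fell below the filter; the 7 summed to 6.69 to 16.5 CPM, of which Hdc, the histidine decarboxylase, had a mean of 11.4 CPM over the mice. Leukocyte markers summed to 8.4 to 25.3 CPM.

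The zona pellucida is the glycoprotein coat around the mammalian oocyte. ZP1, ZP2 and ZP3 are secreted by the growing oocyte; in mouse, ZP2 is the protein that sperm bind, and ZP1 cross-links filaments of ZP2 and ZP3. GDF9 and BMP15 are growth factors of the TGF-beta family that the oocyte secretes and that act on surrounding granulosa and cumulus cells. In the other direction, granulosa cells make KIT ligand (Kitl), which acts on the receptor tyrosine kinase KIT on the oocyte; theca cells of the mouse also carry KIT. FIGLA, NOBOX and LHX8 are transcription factors of the oocyte needed for early follicles: in mouse, FIGLA acts with E12 on E-boxes upstream of the zona genes, and NOBOX binds the promoters of oocyte genes such as Gdf9.

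Promoter sequence was available for 7 of the genes in RefSeq (GRCm38.p6), from which the 250 bases before the start site were read. The 4 shown are a zona gene, an oocyte growth factor, an oocyte transcription factor and the granulosa ligand, because these stand on different sides of the covariation described further on. Capitals mark matches, on either strand, to the E-box CANNTG and to the letters TGATTG, to which LHX8 is known to bind; the letters TAATTG, to which NOBOX is known to bind, were also searched. The windows were chr5:135979855-135980104 on the plus strand for Zp3, chrX:6320725-6320974 on the minus strand for Bmp15, chr6:43309555-43309804 on the minus strand for Nobox and chr10:100015571-100015820 on the plus strand for Kitl.
Zp3: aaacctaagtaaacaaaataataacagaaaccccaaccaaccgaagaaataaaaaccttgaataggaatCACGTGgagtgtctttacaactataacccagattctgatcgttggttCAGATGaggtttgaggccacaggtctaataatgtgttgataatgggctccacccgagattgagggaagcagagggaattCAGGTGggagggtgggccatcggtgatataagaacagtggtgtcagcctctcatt
Bmp15: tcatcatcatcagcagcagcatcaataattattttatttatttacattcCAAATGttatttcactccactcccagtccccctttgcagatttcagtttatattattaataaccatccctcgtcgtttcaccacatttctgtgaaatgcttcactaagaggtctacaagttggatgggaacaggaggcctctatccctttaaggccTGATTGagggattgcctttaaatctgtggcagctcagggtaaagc
Nobox: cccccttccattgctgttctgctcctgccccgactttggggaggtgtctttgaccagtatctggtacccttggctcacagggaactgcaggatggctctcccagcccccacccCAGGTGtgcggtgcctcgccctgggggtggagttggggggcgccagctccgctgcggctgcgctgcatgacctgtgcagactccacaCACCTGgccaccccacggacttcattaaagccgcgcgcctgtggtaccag
Kitl: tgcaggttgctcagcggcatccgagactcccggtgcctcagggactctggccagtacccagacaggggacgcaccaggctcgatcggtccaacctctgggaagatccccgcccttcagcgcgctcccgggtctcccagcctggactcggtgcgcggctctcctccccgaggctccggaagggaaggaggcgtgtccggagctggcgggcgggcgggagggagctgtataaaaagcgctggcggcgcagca
The Zp3 window held 3 E-boxes, which began 181, 134 and 55 bases before the start site. Nobox had E-boxes at 137 and 50 bases and Figla at 173 and 164 bases. Bmp15 had 1 E-box at 201 bases and 1 TGATTG at 45 bases. No match to these letters was found in the windows of Kit, Kitl and Lhx8, and none of the 7 genes had TAATTG. Of 32851 promoter windows of the same length, 66.2% held an E-box, 12.7% TGATTG and 7.17% TAATTG. The palindromic E-box CACGTG, found in Zp3, was in 6.02% of all windows. A match is a string of letters here and says nothing of binding in these follicles.

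Levels were compared between genes as CPM per kilobase of the longest coding transcript (GENCODE M21), over all 20 mice. Gdf9 was highest at 63.4 ± 13.6 CPM per kilobase (SD), followed by Zp3 at 42.8 ± 11.4 and Zp2 at 41.2 ± 12.2. Bmp15 had 19.4 ± 3.62 and Zp1 17.3 ± 4.89 CPM per kilobase. Kitl (10.3 ± 6.75), Kit (7.98 ± 2.61) and Nobox (7.47 ± 1.90) were lower. Lhx8 had 2.25 ± 0.437 and Figla 0.906 ± 0.291 CPM per kilobase. Zp3 and Zp2, Bmp15 and Zp1, and Kitl, Kit and Nobox each differed from their neighbour in this order by less than the SD of either gene. Figla rested on 10 to 53 counts per library, and counting alone gives it a coefficient of variation (CV, SD over mean) of 17.6%; for the other genes counting gives at most 6.75%.

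**Figure D1:**
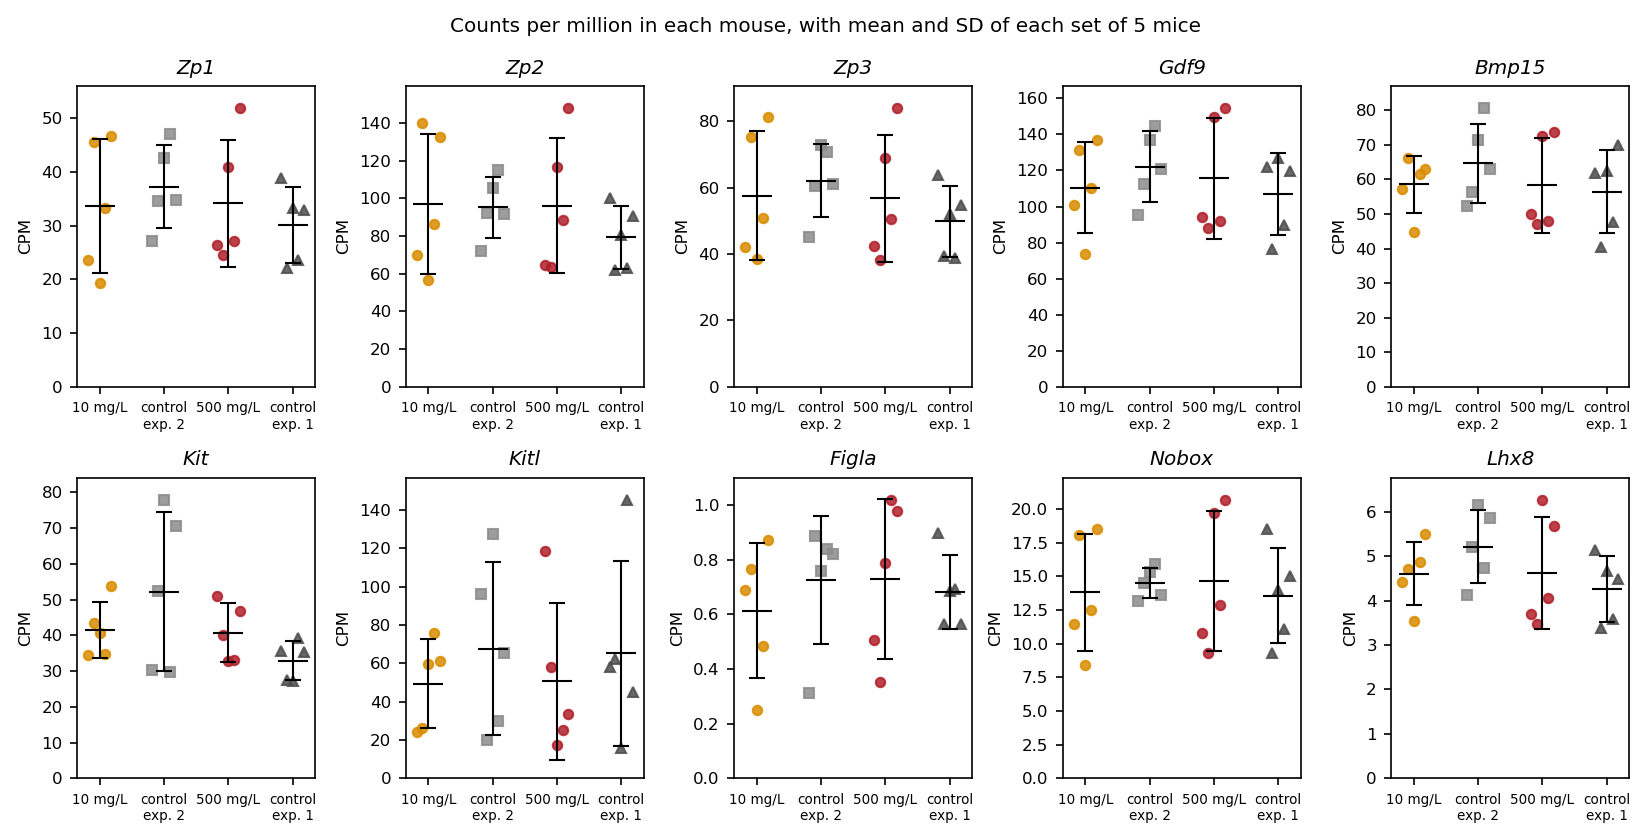
CPM (y axis, from 0) of each gene in each of the 20 mice, in sets of 5 by dose and experiment (x axis); bars give the mean and SD of a set. In every panel each dose overlaps the controls of its own experiment, and Kitl has the widest relative scatter, 15.8 to 145 CPM.

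No zona gene passed the test at either dose, and the sets of exposed mice overlapped those of their controls. Zp2 had 69.8, 139.9, 56.7, 86.5 and 132 CPM in the mice at 10 mg/L, against 72.3, 92.3, 105, 115 and 91.8 CPM in the controls of that experiment. It had 64.9, 63.4, 116, 88.4 and 148 CPM in the mice at 500 mg/L, against 100, 62.1, 80.5, 63.0 and 90.7 CPM in their controls. At each dose the highest mice lay above every control and the others among or below the controls. The log2 change of Zp2 was 0.02 at 10 mg/L (95% interval -0.51 to 0.56, adjusted p = 0.991 by edgeR's quasi-likelihood test) and 0.28 at 500 mg/L (-0.26 to 0.82, adjusted p = 0.965), each against its own controls.

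Zp3, the other main protein of the zona filaments, averaged 57.6 ± 19.4 CPM at 10 mg/L and 62.1 ± 11.0 CPM in the controls of that experiment (SD, n = 5 each). It averaged 56.8 ± 19.2 CPM at 500 mg/L and 49.8 ± 10.7 CPM in the controls of that experiment. Zp1, the cross-linker, averaged 33.7 ± 12.5 CPM at 10 mg/L and 37.3 ± 7.78 CPM in its controls, and 34.2 ± 11.8 CPM at 500 mg/L and 30.2 ± 7.09 CPM in its controls. The intervals of the log2 change ran from -0.60 to 0.38 for Zp3 and from -0.68 to 0.39 for Zp1 at 10 mg/L. At 500 mg/L they ran from -0.30 to 0.68 for Zp3 and from -0.36 to 0.71 for Zp1.

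Neither oocyte-secreted growth factor passed the test at either dose. Bmp15 had the lowest CV of the 10 genes over the 20 mice, 18.6%, and Gdf9 had 21.4%. Gdf9 had 100.6, 131, 73.9, 110.1 and 137 CPM at 10 mg/L, against 95.2, 112.5, 137, 145 and 121 CPM in the controls of that experiment. At 500 mg/L it had 94.0, 87.9, 149.9, 91.7 and 154 CPM, against 122, 76.2, 127, 89.6 and 119.6 CPM in the controls. Bmp15, the partner of Gdf9, averaged 58.6 ± 8.38 CPM at 10 mg/L and 64.7 ± 11.4 CPM in its controls. At 500 mg/L it averaged 58.3 ± 13.7 CPM, and 56.5 ± 12.1 CPM in its controls. All of these sets overlapped. With both doses against water and experiment as a term, the log2 change was -0.02 for Gdf9 (95% interval -0.31 to 0.28) and -0.05 for Bmp15 (-0.30 to 0.20), the narrowest intervals of the 10 genes together with Lhx8 (-0.30 to 0.24).

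Kit, the receptor, was where the control sets stood farthest apart. It had 34.5, 43.4, 40.6, 34.9 and 53.8 CPM at 10 mg/L, against 30.3, 52.4, 77.9, 29.8 and 70.7 CPM in the controls of experiment 2. At 500 mg/L it had 51.1, 40.1, 32.8, 33.0 and 46.8 CPM, against 35.5, 27.5, 27.1, 39.2 and 35.3 CPM in the controls of experiment 1. The controls of experiment 2 held the 2 highest and 2 of the 5 lowest values of Kit in the study. The log2 change of Kit was -0.33 at 10 mg/L (95% interval -0.83 to 0.16, adjusted p = 0.839) and 0.31 at 500 mg/L (-0.18 to 0.80, adjusted p = 0.965) by edgeR's quasi-likelihood test against the own controls. The effect at 500 mg/L minus that at 10 mg/L was 0.64 (-0.05 to 1.34, p = 0.0674, adjusted p = 0.914 by edgeR). Between the controls of experiment 1 and those of experiment 2 it was -0.67 (-1.16 to -0.17), with p = 0.0107 and an adjusted p of 0.347 by edgeR.

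Kitl, the ligand made by granulosa cells, varied most from mouse to mouse, over a 9.19-fold range. It had 24.0, 26.1, 59.5, 76.0 and 61.3 CPM at 10 mg/L, against 95.9, 19.8, 127, 30.0 and 65.3 CPM in the controls of experiment 2. At 500 mg/L it had 119, 58.0, 17.3, 25.3 and 33.8 CPM, against 58.3, 62.2, 15.8, 145 and 45.2 CPM in the controls of experiment 1. High and low mice occurred in every set. With both doses against water and experiment as a term, the log2 change was -0.41, but the 95% interval reached from -1.28 to 0.46 (adjusted p = 0.91 by edgeR). Its counting error was 1.92%, so depth did not set this width. Without the mouse at 500 mg/L with 119 CPM (replicate 1), the log2 change of Kitl at 500 mg/L against all controls was -0.98, still with an adjusted p of 0.603 by edgeR, against -0.39 with it. Over the alternatives run, this log2 change of Kitl lay between -0.98 and -0.17, and the one at 500 mg/L against the own controls lay between -0.96 and 0.16, where the positive value came without control replicate 9. For either dose against water, with experiment as a term, the log2 change of Kitl was -0.69 without the same mouse at 500 mg/L and -0.17 without control replicate 9, against -0.41 with all mice.

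Nobox and Lhx8 were at moderate to low levels and Figla close to the floor of the filter. Nobox had 11.5, 18.1, 8.45, 12.5 and 18.5 CPM at 10 mg/L, against 13.2, 14.5, 15.3, 15.9 and 13.6 CPM in its controls, which lay inside the exposed range. At 500 mg/L it had 10.8, 9.28, 19.7, 12.9 and 20.7 CPM, against 18.5, 9.33, 14, 11.1 and 15 CPM in its controls. Lhx8, a LIM homeobox factor, averaged 4.61 ± 0.713 CPM at 10 mg/L and 5.21 ± 0.824 CPM in its controls, and 4.63 ± 1.26 CPM at 500 mg/L and 4.26 ± 0.746 CPM in its controls. Figla, a basic helix-loop-helix factor, averaged 0.613 ± 0.247 CPM at 10 mg/L and 0.725 ± 0.234 CPM in its controls, and 0.730 ± 0.293 CPM at 500 mg/L and 0.682 ± 0.136 CPM in its controls. With both doses against water, the log2 changes were 0.02 for Nobox (95% interval -0.32 to 0.36), -0.03 for Lhx8 and -0.07 for Figla (-0.57 to 0.43).

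**Figure D2:**
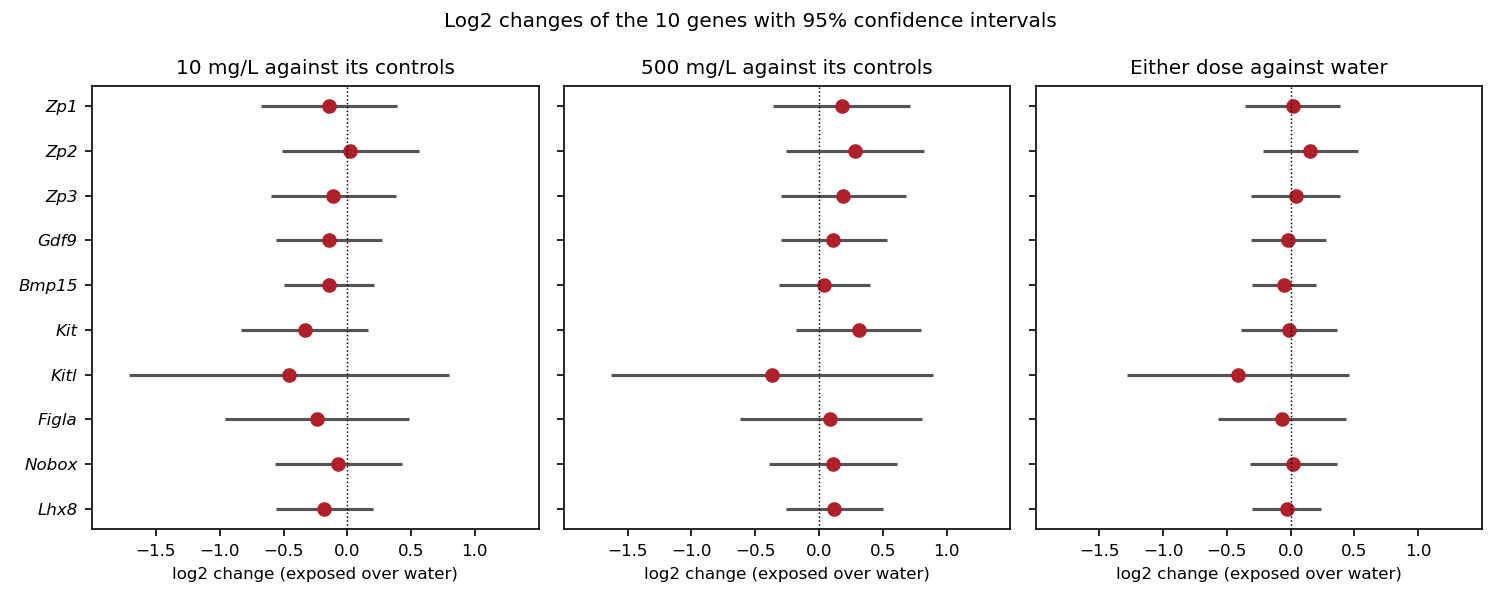
Log2 change (x axis) of each gene (rows) with its 95% confidence interval, for 10 mg/L against the controls of its experiment, 500 mg/L against the controls of its experiment, and either dose against water with experiment as a term. All intervals include 0, and those of Kitl are the widest, from -1.71 to 0.80 at 10 mg/L.

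Counted together, 0 of the 10 genes passed an adjusted p of 0.05 in any of the 8 comparisons with edgeR, and likewise 0 with DESeq2, limma-voom and limma-trend, each adjusted over all genes. Against the own controls, the background of all 17810 genes was also 0% at 10 mg/L and 0% at 500 mg/L with edgeR, where DESeq2 called 31 genes at 10 mg/L and 5 at 500 mg/L. At an unadjusted p under 0.05, 0 of the 10 genes passed, against 6.45% of all genes at 10 mg/L and 5.19% at 500 mg/L. The median log2 change of the 10 was -0.14 at 10 mg/L, with 1 of 10 positive, and 0.12 at 500 mg/L, with 9 of 10 positive; the median of all tested genes was 0 in each. Because most of these genes rise and fall together between mice, as described next, these signs are not 10 separate observations. The effect at 500 mg/L minus that at 10 mg/L had a median of 0.28 over the 10 genes (all genes 0.01), again with 0 genes past the threshold (background 0%; 5.41% at an unadjusted p under 0.05). Controls of experiment 1 against those of experiment 2 had a median of -0.23, with 0 of 10 positive (all genes 0). Against the combined controls the medians were -0.04 at 10 mg/L and 0.02 at 500 mg/L. For 500 mg/L against 10 mg/L the median was 0.01. The part of the control sets in these signs was not tested.

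Pooling both doses against water with experiment as a term, 0 of 10 passed (background 0.0112%), and 0 at an unadjusted p under 0.05 (background 6.81%); the median was -0.01. Against the combined controls of both experiments, as the submitters grouped them, 0 of 10 passed at 10 mg/L (background 0.00561%; 0 unadjusted, background 6.22%) and 0 at 500 mg/L (background 0.0112%; 0 unadjusted, background 8.69%); these comparisons share their controls. For 500 mg/L against 10 mg/L, 0 passed (background 0.0112%; 0 unadjusted, background 10.0%), and that contrast also holds the difference between experiments. The controls of experiment 1 against those of experiment 2 gave 0 of 10 (background 0.157%) and 1 of 10 unadjusted, Kit (background 9.78%). In the authors' deposited table, the lowest false discovery rate of the 10 genes was 0.651 for 10 mg/L and 0.703 for 500 mg/L against all controls. The signed fold of Kitl in the authors' deposited table, negative for lower in exposed mice, was -1.23 at 10 mg/L and -1.33 at 500 mg/L, and those of the zona genes lay between -1.04 and 1.07.

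Across the 20 mice, 8 of the genes rose and fell together: the 3 zona genes, Gdf9, Bmp15, Nobox, Lhx8 and Figla. Of the 45 pairs among the 10 genes, 28 passed a permutation test of Pearson's r of log2 CPM (100000 resamples, Benjamini-Hochberg over the 45 pairs), and these were the 28 pairs among those 8 genes. By Spearman's rho 28 pairs passed as well. Among the zona genes r was 0.96 to 0.98 (rho 0.97), and between Gdf9 and Bmp15 it was 0.96 (rho 0.96). The adjusted p of these 4 pairs was 2.65e-05, from a p of 1e-05, the smallest that the permutations can give. Leaving out Figla, r ran from 0.80 to 0.98 over 21 pairs, and rho from 0.82 to 0.97.

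The covariation was also present within each experiment and after removal of the set means. The 21 pairs without Figla had r of 0.85 to 0.99 in experiment 1 and 0.64 to 0.97 in experiment 2. After each gene was centred in its set of dose and experiment, r was 0.81 to 0.98. Without the 2 mice farthest from the median of the first gene of a pair, r was 0.76 to 0.97. Figla followed the other 7 less closely, with r of 0.52 to 0.70, and its 0.42 with Bmp15 without the 2 farthest mice was its lowest. CPM of bulk follicles is a share of the counts of each library. The number of oocytes, their RNA per follicle and the RNA of other follicle cells cannot be told apart in it.

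**Figure D3:**
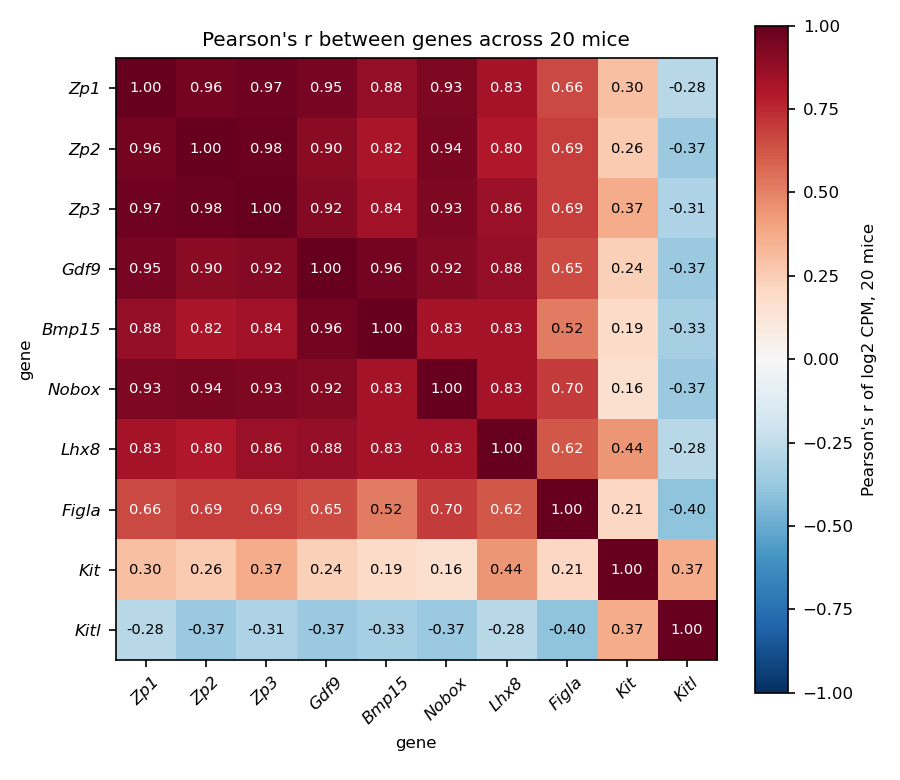
Pearson's r of log2 CPM over 20 mice between each pair of the 10 genes (rows and columns; red for positive, blue for negative). The first 8 genes form a block of 0.52 to 0.98, Kit has 0.16 to 0.44 with them and Kitl -0.40 to -0.28.

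No pair of Kit or Kitl with that block passed the threshold. Kit had r of 0.16 to 0.44 with the 8 genes, with 0 of 8 pairs past the threshold (adjusted p 0.0822 to 0.507, permutation test). By experiment, without a test, Kit's coefficients were -0.12 to 0.16 in experiment 1 and 0.17 to 0.75 in experiment 2, where the highest was with Lhx8. Kitl had r of -0.40 to -0.28, also 0 of 8 (adjusted p 0.119 to 0.26, permutation test). Kitl's coefficients were -0.65 to -0.41 in experiment 1 and -0.41 to 0.19 in experiment 2. The receptor and its ligand had r of 0.37 with each other (rho 0.36, adjusted p = 0.14 by permutation).

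**Figure D4:**
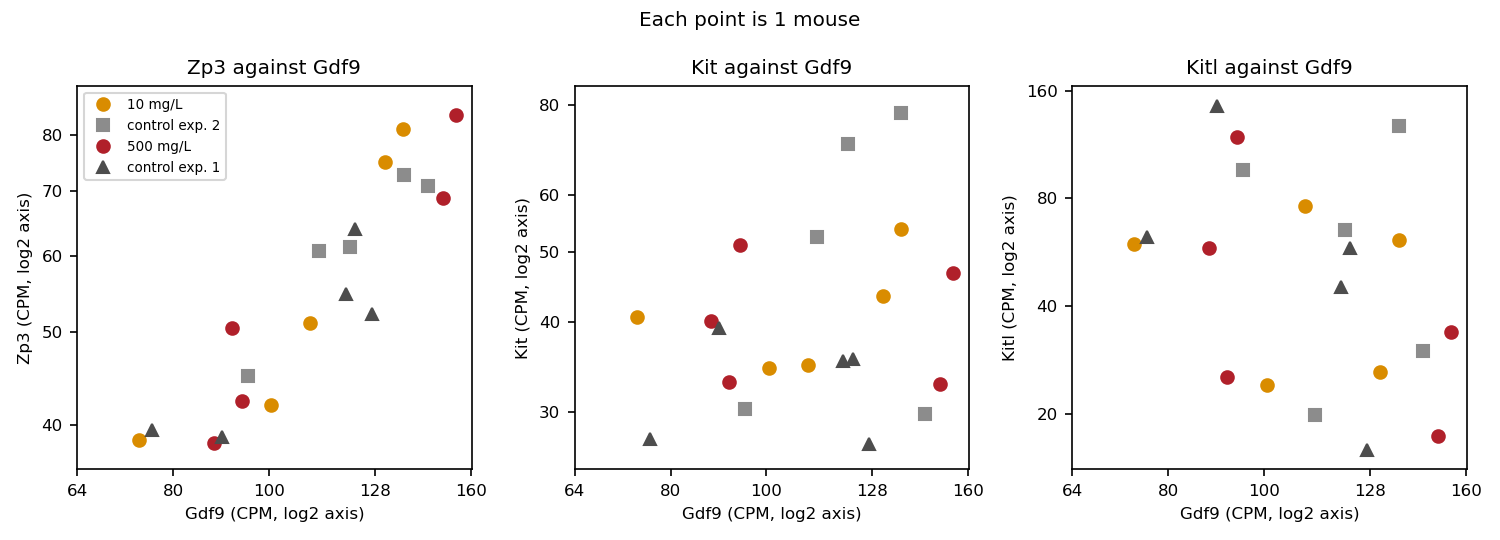
CPM of Zp3, Kit and Kitl (y axes) against CPM of Gdf9 (x axes), both on log2 axes, with 1 point per mouse and the sets of dose and experiment in colour. Zp3 follows Gdf9 (r of 0.92 over the 20 mice), while Kit (0.24) and Kitl (-0.37) scatter.

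The block extended to oocyte genes outside the 10. A score, the mean log2 CPM of 25 further oocyte genes such as Padi6, Nlrp5 and Tle6, maternal proteins of the egg, ranged over 0.85 on the log2 scale between mice. It had r of 0.97 with Zp1, 0.95 with Zp2, 0.96 with Zp3 and 0.95 with Gdf9. With Nobox r was 0.93, with Bmp15 0.88, with Lhx8 0.84 and with Figla 0.63 (permutation test, adjusted p = 0.0252 for Figla and 0.000114 for the other 7, over 80 relations). With Kit it was 0.32 and with Kitl -0.25, neither past the threshold (adjusted p of 0.851 and 0.949, permutation test). Subtracting the score lowered the SD of log2 CPM of Gdf9 to 0.12, against 0.32 before, and of Zp3 to 0.17, against 0.38. The SD of Kit was 0.41 after and 0.42 before, and that of Kitl 1.06 after and 0.98 before.

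The size of the shared movement differed between genes. Per log2 unit of the score, Zp1 moved by 1.67, Zp2 by 1.63, Zp3 by 1.51 and Nobox by 1.43. Gdf9 moved by 1.24, Bmp15 by 1.00 and Lhx8 by 0.97. These slopes are descriptions, since the score was measured with error and in the same libraries. The mice with the highest scores were replicate 5 at 500 mg/L (0.39 above the mean), replicate 5 at 10 mg/L (0.31), control replicate 4 (0.29) and replicate 2 at 10 mg/L (0.28). The lowest were control replicate 7 (-0.46) and replicate 3 at 10 mg/L (-0.37).

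Spread between mice was wider in the exposed sets for most genes of the block. The CV of Zp2 was 38.4% at 10 mg/L against 17.0% in its controls, and 37.4% at 500 mg/L against 21.2% in its controls. That of Nobox was 31.6% at 10 mg/L against 7.85% in its controls, and 35.5% at 500 mg/L against 26.3% in its controls. At 500 mg/L all 10 genes had a higher CV than in their controls, and at 10 mg/L 6 of 10 did; Bmp15, Lhx8, Kit and Kitl did not there. Whether the spread differs was not tested, and genes that move together share the same few mice. The share of all tested genes with a higher CV was not computed. These counts thus have no background and do not show a trait particular to these genes.

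Ratios between genes of the block varied less between mice than the genes themselves. The ratio of Zp2 to Zp3 CPM was 1.66 ± 0.141 at 10 mg/L and 1.54 ± 0.0741 in its controls, and 1.68 ± 0.094 at 500 mg/L and 1.59 ± 0.0474 in its controls. Against all 10 controls the log2 ratio at 500 mg/L was higher by 0.10, with an exact two-sided permutation p of 0.024 that became 0.48 after adjustment over the 20 ratio tests. The ratio of Gdf9 to Bmp15 was 1.87 ± 0.204 at 10 mg/L and 1.89 ± 0.0826 in its controls, and 1.96 ± 0.106 at 500 mg/L and 1.90 ± 0.123 in its controls. Over the 20 mice it was 1.90 ± 0.131. The ratio of Kitl to Kit ran from 0.378 to 3.71. None of the 5 ratios passed in any of 4 comparisons after adjustment.

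Among 13177 other genes with a mean of at least 2 CPM, those most like Gdf9 over the 20 mice were Eif4e1b, H1f8, Ccno, Gm1070 and Oas1d, each with r of 0.96. H1f8, the oocyte linker histone, was also on the list of further oocyte genes. Those most like Kit were Cdhr5 (0.81), Aph1c (0.79), Cyp26b1 (0.77), Pde8b (0.76) and Chdh (0.76). Cyp26b1 had a rho of only 0.43. Most like Kitl was Gm35533 (r 0.83, rho 0.84, mean 3.69 CPM), a long non-coding RNA gene that neighbours Kitl in RefSeq. Lpin3 (0.70), Mb21d2 (0.69) and Grid1 (0.67) were also among the most like. These are the top of a ranking and carry no test.

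Of the 8 lists of markers, Kit had its highest r with the theca markers. These are genes of the theca, the androgen-making shell of the follicle, and of steroid-making interstitium, which the list does not separate. Its r with the mean log2 CPM of the 6 theca markers was 0.64 (adjusted p = 0.02 by permutation, over the same 80 relations), while rho was 0.55 (adjusted p = 0.106). It was 0.50 without the 2 farthest mice, 0.34 in experiment 1 and 0.72 in experiment 2. The theca markers summed to 4122 to 8791 CPM at 10 mg/L and 4134 to 7983 CPM in its controls, and to 5204 to 8913 CPM at 500 mg/L and 5604 to 8742 CPM in its controls. Of the theca markers, Cyp17a1, the androgen-forming enzyme, had a log2 change of -0.82 (SE 0.52) at 10 mg/L and 1.24 (SE 0.53) at 500 mg/L against the own controls, with adjusted p of 0.819 at 10 mg/L and 0.954 at 500 mg/L by edgeR. Cyp11a1, the side-chain cleavage enzyme, had the opposite signs, with log2 changes of 0.96 (SE 0.43) at 10 mg/L and -0.52 (SE 0.42) at 500 mg/L and adjusted p of 0.763 at 10 mg/L and 0.965 at 500 mg/L by edgeR. The log2 changes of Hsd3b1 were 0.07 at 10 mg/L and 0.01 at 500 mg/L, and those of Ptch1 were -0.09 at 10 mg/L and 0.24 at 500 mg/L, so the signs differed among these markers and none passed the adjusted threshold. The unadjusted p by edgeR was 0.133 at 10 mg/L and 0.0303 at 500 mg/L for Cyp17a1. For Cyp11a1 it was 0.0361 at 10 mg/L and 0.238 at 500 mg/L. Between the controls of experiment 1 and those of experiment 2, log2 changes were -1.40 for Cyp17a1 and 0.81 for Cyp11a1. For Hsd3b1 the change between these controls was 0.12 and for Ptch1 -0.20. The part of the control sets in these signs and the part of theca cells in the values of Kit were not tested. Kitl had r of -0.36 with the 7 granulosa markers (adjusted p = 0.75 by permutation) and rho of -0.51 (adjusted p = 0.18 by permutation). Its highest r was 0.42, with the endothelium markers (adjusted p = 0.554 by permutation). No list passed the threshold with Kitl, and the part of these cells in its values was not tested.

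The genes on which these signals act did not pass either. Of 16 receptors, SMADs and proteases for GDF9 and BMP15, 0 passed in either direction in any comparison (adjusted p under 0.05, edgeR). Their median log2 change was -0.05 at 10 mg/L and 0.01 at 500 mg/L against the own controls. An unadjusted p under 0.05 by edgeR was found for 2 of the 16 at 10 mg/L (6.45% of all genes) and 0 at 500 mg/L (5.19% of all genes). Bmpr2, the type II receptor for both factors, averaged 1016 CPM over the 20 mice, with log2 changes of -0.05 (SE 0.14) at 10 mg/L and 0.16 (SE 0.14) at 500 mg/L. Bmpr1b, a type I receptor used by BMP15, had -0.10 at 10 mg/L and 0.11 at 500 mg/L (SE 0.19 each). Tgfbr1, the type I receptor used by GDF9, had -0.08 at 10 mg/L and 0.14 at 500 mg/L (SE 0.12 each). Smad4, the shared SMAD, had -0.08 at 10 mg/L and 0.06 at 500 mg/L (SE 0.06 each).

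Of 12 cumulus and granulosa genes known as targets of GDF9 and BMP15 in mouse, 0 passed, with medians of -0.09 at 10 mg/L and 0.13 at 500 mg/L. An unadjusted p under 0.05 by edgeR was found for 1 of the 12 at 10 mg/L (6.45% of all genes) and 2 at 500 mg/L (5.19% of all genes). The 4 most abundant were the glycolytic enzymes Aldoa, Ldha, Tpi1 and Eno1. Their log2 changes were -0.14 to -0.09 at 10 mg/L and -0.01 to 0.11 at 500 mg/L. Of 19 genes of KIT signalling, 0 passed, with medians of -0.06 at 10 mg/L and -0.02 at 500 mg/L against the own controls. There 0 of the 19 had an unadjusted p under 0.05 by edgeR at either dose, with the same shares of all genes. Pik3r1, the regulatory subunit of PI3-kinase, had -0.42 at 10 mg/L and 0.21 at 500 mg/L (SE 0.35 each). Akt1, its downstream kinase, had -0.05 at 10 mg/L and -0.10 at 500 mg/L (SE 0.07 each).

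Of the 25 further oocyte genes, 0 passed. The median log2 change was -0.09 at 10 mg/L and 0.15 at 500 mg/L against the own controls. At each dose 1 of the 25 had an unadjusted p under 0.05 by edgeR, against 6.45% of all genes at 10 mg/L and 5.19% at 500 mg/L. Nlrp5 had -0.04 at 10 mg/L and 0.41 at 500 mg/L (SE 0.24 each). Padi6, at 136 CPM the most abundant of them, had 0.08 at 10 mg/L and 0.19 at 500 mg/L (SE 0.24 each). At 10 mg/L, the 6 endothelium markers were all positive with a median of 0.32. There 5 of 6 had an unadjusted p under 0.05 by edgeR (6.45% of all genes), with 0 past the adjusted threshold. At 500 mg/L against the own controls their median was 0.03, with 4 of 6 positive and 0 at an unadjusted p under 0.05 (5.19% of all genes). Their sums were 245 to 356 CPM at 10 mg/L and 206 to 281 CPM in its controls. At 500 mg/L they were 209 to 323 CPM, and 208 to 329 CPM in its controls. The 4 blood markers had medians of 0.42 at 10 mg/L and 1.02 at 500 mg/L, with 4 of 4 positive at each dose and also 0 past the threshold. Of them, 0 at 10 mg/L and 1 at 500 mg/L (Alas2, log2 change 1.22) had an unadjusted p under 0.05 by edgeR. Their part in the values of the 10 genes was not tested.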

How the data were processed

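Stranded poly(A) libraries of antral follicles (30 to 40 per mouse) were sequenced on 1 lane, per the labels. The submitters' processing notes name the build GRCm39, quantification tool Salmon 1.2.0, quality tool FastQC 0.11.8, and R 4.1.2 with limma and edgeR. How transcripts were summed to genes, and on which annotation, is not stated in them. The authors deposited estimated counts per gene, not normalized. They were rounded, which changed a library total by at most 0.000458%. A deposited table gives the authors' average log2 expression, p-values with false discovery rates, a score (an F statistic) and signed fold changes (also entered as a score), and was used to set its values beside those computed here.

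The 10 genes, the gene lists and the markers were chosen with earlier results of these data known. Named genes of each list are the up to 4 with the highest mean CPM. Genes most like a gene are the 5 with the highest r. Some genes that these rules take are not reported here. Ratios, correlations with list scores and levels per length were chosen after seeing the data.

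Genes were filtered by edgeR 4.0.16 (R 4.3.3) with TMM scaling, leaving 17810 genes. Robust quasi-likelihood models over all 20 mice had 1 mean per group, 1 mean per group and experiment, or exposure plus experiment. Tests were two-sided with Benjamini-Hochberg adjustment over all tested genes at 0.05, and the code was tested on simulated data. Log2 CPM used a prior count of 2. Correlations used 100000 permutations in Python 3.11.15 with scipy 1.17.1. Alternatives were other scalings and filters, DESeq2 1.42.0, limma-voom and limma-trend (limma 3.58.1), only the groups compared, the replicate number as a block, and fits without 1 mouse at a time. The 40 pairs of libraries within sets of 5 mice had chi-square values per gene between 22 and 151, far from copies. Promoters came from RefSeq on GRCm38.p6, another build than the counts, and were matched by symbol. The labels do not say from which litters or cages the mice came.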

Additional observations from a re-analysis of the deposited data

Results flagged for a closer look

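Figla in control replicate 1 of experiment 2 was at 0.314 CPM, far below the other 4 mice of its set, which had 0.760 to 0.888 CPM. The gap to the nearest of them was 0.778 of the range of the set. That library held 13 counts of Figla. This was the 1 case among 50 groups of values examined, and chance flags about 1 in 20 groups. The same mouse had the lowest Zp1, Zp2 and Zp3 of its set, at 27.1, 72.3 and 45 CPM. It was also the lowest of its set for Gdf9 (95.2 CPM), Bmp15 (52.4 CPM), Nobox (13.2 CPM) and Lhx8 (4.13 CPM), but not for Kit or Kitl.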

How the results depend on the processing

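In the 33 settings tried, 0 of the 2332 recomputed log2 changes of the 10 genes crossed the threshold, and the lowest adjusted p was 0.17 (Kit, controls of experiment 1 against controls of experiment 2). The sign of 214 of them turned, all of changes that passed in neither setting. Only 3 moved by more than 1 SE: Kitl at 500 mg/L without replicate 1 of that group, to -0.98 against all controls and to -0.55 against 10 mg/L, and Kit at 10 mg/L against all controls, to -0.28 with the replicate block. Leaving out 1 mouse at a time left 27 to 29 of the 45 pairs of genes past the threshold. Each other setting in which the 45 pairs were recomputed left 28, and the pairs were not recomputed in every setting. The filter of at least 1 CPM in 5 mice removed Figla.

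Samples with the same replicate number had correlations of their deviations of -0.13 to 0.23, over 0.1 in 2 of 15 pairs, so the numbers do not pair the mice. With the replicate block, 0 of the 10 genes were called in the 4 comparisons where it could be fitted. For 500 mg/L against its own controls and between the control sets no block could be fitted, because these groups share no numbers; for the other 2 comparisons it was not run. Counting alone gives Figla a CV of 17.6%, against 32.1% over the 20 mice, so spread between mice is the larger part for Figla as for the other 9 genes. With 5 mice per dose, changes inside the intervals given remain compatible with the data, so the lack of calls does not show that they are absent.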
